A study of Homo sapiens with 12 samples.

Results

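HDAC9, the 3 other class IIa histone deacetylases HDAC4, HDAC5 and HDAC7, the 4 MEF2 transcription factors MEF2A, MEF2B, MEF2C and MEF2D, and FERD3L, a gene 142 kb past the 3' end of HDAC9, were read in RNA-seq libraries of CD44 WT and CD44 KO breast cancer cells. They are 9 of the 58381 genes in the count table, and 7 of the 9 passed the filter on low counts. HDAC9 was chosen by its measured values, for its large difference between CD44 KO and CD44 WT in Hs578T cells, so that difference is described here without a test. The other 8 genes were taken as its family, its partners or a gene of its region. The study compared Hs578T and MDA-MB-231, both established triple negative breast cancer cell lines, in 4 groups of 3 libraries: Hs578T CD44 WT, Hs578T CD44 KO, MDA-MB-231 CD44 WT and MDA-MB-231 CD44 KO. Cells of all 4 groups carried a doxycycline-inducible Cas9 under puromycin selection and received doxycycline. CD44 KO cells were transfected with guide RNAs against CD44 exons, while CD44 WT cells received the transfection reagent alone. CD44 KO cells were sorted as CD29+ and CD44 negative, CD44 WT cells as CD29+ and CD44+, so the knockout and the sort on CD44 cannot be told apart. The sorted cells were populations and not single clones, and they were starved in low serum before RNA was taken. It is not given in the sources used here if the 3 libraries of each group were grown as separate cultures, so the p-values measure the spread between these libraries, which may be technical.

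Class IIa histone deacetylases are corepressors with little deacetylase activity of their own that bind MEF2 factors on DNA and recruit other repressors there. Calcium-dependent kinases, protein kinase D and salt-inducible kinases phosphorylate them, 14-3-3 proteins then bind, and the deacetylase leaves the nucleus, which frees MEF2 to activate its genes. The pathway is best known from muscle, heart, neurons and lymphocytes, and in muscle HDAC9 has itself been described as a gene that MEF2 activates.

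HDAC9 (ENSG00000048052.21, GRCh38 chr7:18086949-19002416, plus strand) was near the limit of detection in Hs578T CD44 WT cells and well expressed in Hs578T CD44 KO cells. Its levels in counts per 1000000 (CPM, scaled by TMM factors) were 0.832, 0.823 and 0.508 in the 3 Hs578T CD44 WT libraries and 77.7, 101.8 and 85.0 in the 3 Hs578T CD44 KO libraries. Every CD44 KO library lay above every CD44 WT library, and the CD44 WT level rested on 28 counts in all, against 3615 in CD44 KO. HDAC9 stood at 0.721 ± 0.185 CPM in CD44 WT and 88.1 ± 12.4 CPM in CD44 KO (mean ± SD, n = 3 each), a fitted log2 difference of 6.90 (standard error 0.302), or 119.5-fold. In bulk libraries, more cells that carry HDAC9 RNA and more HDAC9 RNA per cell cannot be told apart. In Hs578T CD44 WT all 3 libraries lay under the filter's limit of 1 CPM, and HDAC9 passed the filter through the other 3 groups.

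In MDA-MB-231 cells HDAC9 was present in both groups. Its levels were 19.6, 39.7 and 37.3 CPM in the CD44 WT libraries and 55.3, 53.7 and 47.8 CPM in the CD44 KO libraries, or 32.2 ± 10.96 and 52.3 ± 3.96 CPM. The CD44 KO libraries all lay above the CD44 WT libraries, of which replicate 1 was the lowest. The log2 difference was 0.70 (standard error 0.192) with an adjusted p of 0.0299 after Benjamini-Hochberg adjustment of the quasi-likelihood test in edgeR, which missed the threshold of 0.01, and the adjusted p ranged from 1.39e-06 to 0.108 over the alternative settings. Without MDA-MB-231 CD44 WT replicate 1 the log2 difference was 0.44 (adjusted p = 0.0296, edgeR). From the lowest to the highest level, the groups stood in the order Hs578T CD44 WT, MDA-MB-231 CD44 WT, MDA-MB-231 CD44 KO and Hs578T CD44 KO. No neighbours in that order overlapped. The step between the MDA-MB-231 groups is the only one that was tested, and it missed the threshold. The rest of the order uses the Hs578T values by which HDAC9 was chosen. The log2 difference between CD44 KO and CD44 WT was 6.20 (standard error 0.374) larger in Hs578T than in MDA-MB-231, and the fitted level of Hs578T CD44 WT was 5.45 log2 units below that of MDA-MB-231 CD44 WT (log2 difference -5.45, standard error 0.314). The panels of levels by library show that among the 7 members tested only HDAC9 had a group with every library under 1 CPM.

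**Figure D1:**
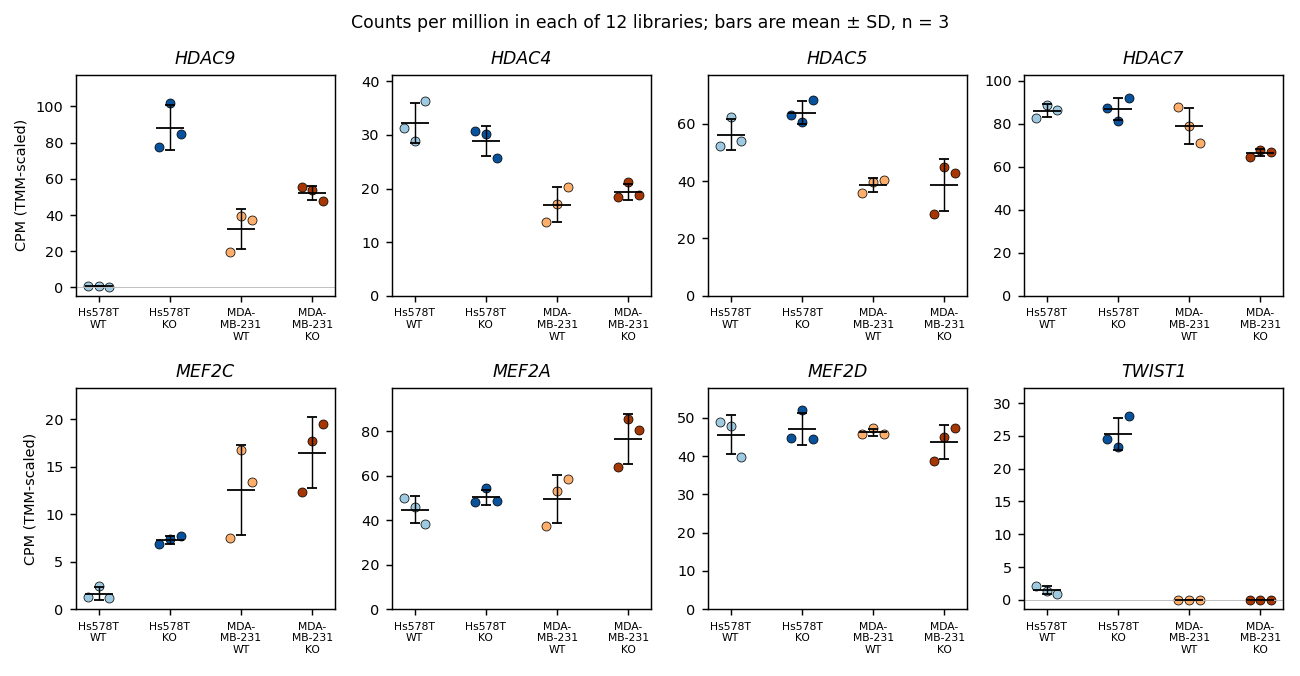
Level in CPM (y axis, linear scale) in each library of the 4 groups (x axis), for the 7 members that passed the filter and for TWIST1, which lies past the 3' end of HDAC9; points are libraries, and bars are the mean ± SD (n = 3). HDAC9 stood between 0.508 and 0.832 CPM in Hs578T CD44 WT and between 77.7 and 101.8 CPM in Hs578T CD44 KO, while HDAC4, HDAC5 and HDAC7 stood at 13.7 CPM or above in all 12 libraries.

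The other class IIa genes showed no call in either line, as HDAC9 did not in MDA-MB-231. HDAC4, a corepressor best known from bone and muscle, stood at 31.4, 29.0 and 36.4 CPM in Hs578T CD44 WT and at 30.8, 30.1 and 25.7 CPM in Hs578T CD44 KO. These libraries overlapped, and the log2 difference was -0.16 (standard error 0.138, adjusted p = 0.512, edgeR). HDAC5, a target of calcium-dependent kinases in the heart, stood at 52.2, 62.4 and 54.1 CPM in Hs578T CD44 WT and at 63.0, 60.5 and 68.2 CPM in Hs578T CD44 KO. Its groups overlapped too, with a log2 difference of 0.18 (standard error 0.137, adjusted p = 0.434). HDAC7, known from endothelial cells and thymocytes, had 86.0 ± 3.00 CPM in Hs578T CD44 WT and 86.9 ± 5.26 CPM in Hs578T CD44 KO, a log2 difference of 0.01 (standard error 0.0895, adjusted p = 0.955).

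In MDA-MB-231, HDAC7 was the class IIa gene whose CD44 KO libraries all lay below the CD44 WT libraries. Its CD44 WT libraries had 87.6, 78.8 and 70.9 CPM and its CD44 KO libraries 64.6, 67.7 and 67.1 CPM. The log2 difference of -0.25 (standard error 0.0905) had an adjusted p of 0.0999 in edgeR and was not called. HDAC4 stood at 16.99 ± 3.26 CPM in MDA-MB-231 CD44 WT and 19.4 ± 1.49 CPM in CD44 KO (adjusted p = 0.452). HDAC5 stood at 38.7 ± 2.39 CPM in MDA-MB-231 CD44 WT and at 28.4, 44.9 and 42.7 CPM in CD44 KO, where replicate 1 lay below all the other libraries of that line (log2 difference 0.00, standard error 0.142).

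Levels per exonic length (FPKM, CPM per kilobase of exon) place the 4 class IIa genes beside each other. The annotated exons of a gene together can be longer than any 1 transcript, so these levels can understate the RNA of genes with many transcripts such as HDAC9, whose exons span 16827 nt. In Hs578T CD44 WT the order was HDAC7 (8.66 FPKM), HDAC5 (7.38 FPKM), HDAC4 (2.41 FPKM) and HDAC9 (0.0428 FPKM). In Hs578T CD44 KO HDAC9 stood at 5.24 ± 0.736 FPKM, above HDAC4 at 2.16 ± 0.208 FPKM and below HDAC5 at 8.38 ± 0.513 FPKM and HDAC7 at 8.75 ± 0.530 FPKM. HDAC9 thus made up 0.232 ± 0.0619% of the class IIa FPKM in Hs578T CD44 WT and 21.4 ± 2.97% in Hs578T CD44 KO (n = 3 each). The summed class IIa level was 18.5 ± 0.876 FPKM in Hs578T CD44 WT and 24.5 ± 0.608 FPKM in Hs578T CD44 KO. In MDA-MB-231 the sum was 16.2 ± 0.522 FPKM in CD44 WT and 16.3 ± 1.32 FPKM in CD44 KO, of which HDAC9 held 11.7 ± 3.74% and 19.2 ± 2.60%. HDAC9 lay above HDAC4 per length in both MDA-MB-231 groups, at 1.91 against 1.27 FPKM in CD44 WT and 3.11 against 1.45 FPKM in CD44 KO. The stacked levels show that the larger class IIa sum of Hs578T CD44 KO came with the HDAC9 segment.

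**Figure D2:**
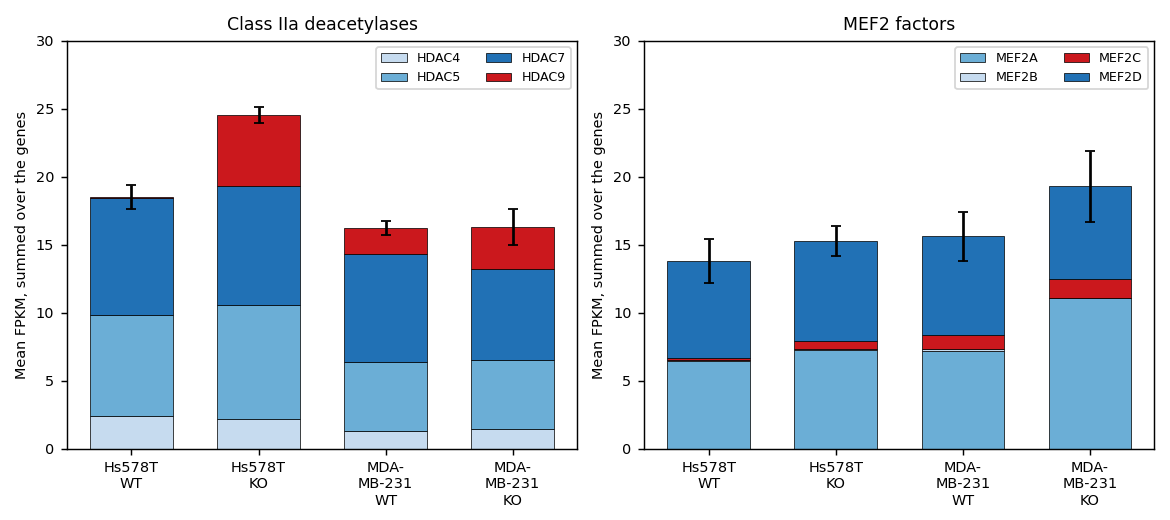
Mean FPKM (y axis) summed over the class IIa deacetylases (left) and the MEF2 factors (right) in the 4 groups (x axis); segments are genes, and error bars are the SD of the sum (n = 3). The HDAC9 segment was 0.0428 FPKM in Hs578T CD44 WT and 5.24 FPKM in Hs578T CD44 KO, and the MEF2C segment stayed small in all groups, at 0.139, 0.621, 1.07 and 1.40 FPKM from left to right.

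MEF2C rose in Hs578T CD44 KO cells. MEF2C (ENSG00000081189.15, chr5:88717117-88904257, minus strand), a factor known from heart, skeletal muscle, neurons and B cells, had 1.32, 2.39 and 1.19 CPM in Hs578T CD44 WT and 6.82, 7.40 and 7.68 CPM in Hs578T CD44 KO. Every CD44 KO library lay above every CD44 WT library, and the CD44 WT level of 1.63 ± 0.658 CPM rested on 62 counts in all. The log2 difference was 2.17 (standard error 0.330, adjusted p = 0.000388, edgeR), or 4.49-fold. MEF2C was the 1 member called of the 6 tested in Hs578T apart from HDAC9, where 7.51% of all genes were called, and 3.64% were called as higher. The call held in all 24 alternative settings, with a highest adjusted p of 0.00462.

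In MDA-MB-231, MEF2C stood at 7.46, 16.8 and 13.4 CPM in CD44 WT and at 12.3, 17.7 and 19.5 CPM in CD44 KO. These groups overlapped, and the log2 difference of 0.39 (standard error 0.250) had an adjusted p of 0.377. The difference between the changes of both lines was 1.77 on the log2 scale (standard error 0.418), larger in Hs578T, with an adjusted p of 0.0144 that missed the threshold in edgeR. DESeq2 gave 0.000993 for it, the block of consecutive label numbers (1 to 4, 5 to 8 and 9 to 12) gave 0.00168 in edgeR, and without MDA-MB-231 CD44 WT replicate 1 the difference was 2.04 (adjusted p = 0.0015 by edgeR). The adjusted p of that difference ranged from 3.04e-07 to 0.0534 over the alternatives. Of the 6 members tested for a difference between the lines, 0 were called by edgeR, 1 had an unadjusted p under 0.05 and 1 was called by DESeq2, which was MEF2C in both cases, against 4.12% of all genes called by edgeR.

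MEF2A (chr15:99565417-99716466, plus strand), a factor found in most tissues, had the largest difference of the MEF2 genes in MDA-MB-231, but it was not called. Its levels were 37.5, 53.0 and 58.4 CPM in MDA-MB-231 CD44 WT and 63.8, 85.4 and 80.7 CPM in CD44 KO. All CD44 KO libraries lay above all CD44 WT libraries, of which replicate 1 was again the lowest. The log2 difference was 0.63 (standard error 0.153, adjusted p = 0.0156, edgeR), and DESeq2 gave an adjusted p of 0.00236. Leaving out MDA-MB-231 CD44 WT replicate 1 gave 0.46 (adjusted p = 0.0378) and leaving out the unnumbered CD44 WT library gave 0.76 (adjusted p = 0.00797). With consecutive label numbers as a block, MEF2A was called (0.63, adjusted p = 0.000837), and the adjusted p ranged from 5.04e-06 to 0.0853 over all alternatives. In Hs578T, MEF2A stood at 44.7 ± 5.97 CPM in CD44 WT and 50.3 ± 3.44 CPM in CD44 KO, a log2 difference of 0.17 (standard error 0.154, adjusted p = 0.531). MEF2D, the other widely expressed MEF2 gene, stood between 43.6 and 47.0 CPM as group means in all 4 groups, with log2 differences of 0.05 in Hs578T (adjusted p = 0.839) and -0.08 in MDA-MB-231 (adjusted p = 0.705). MEF2B, known from B cells, did not pass the filter, with 5 counts in Hs578T CD44 WT, 3 in Hs578T CD44 KO, 10 in MDA-MB-231 CD44 WT and 2 in MDA-MB-231 CD44 KO. It shares exons with the readthrough gene BORCS8-MEF2B, and fragments that fall in both genes were not counted, so its level is uncertain.

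Of the 7 members tested in MDA-MB-231, 0 were called by edgeR, where 4.62% of all genes were, and 1 was called by DESeq2 (MEF2A). An unadjusted p under 0.05 in edgeR was reached by 3 of them (HDAC9, MEF2A and HDAC7), beside 3713 of all 15836 genes. The groups did not overlap for those 3 genes, and 25.5% of all genes tested had groups that did not overlap in MDA-MB-231. In Hs578T, MEF2C alone of the 6 members tested apart from HDAC9 had groups that did not overlap, against 37.3% of all genes. Summed over the family, the MEF2 level was 13.8 ± 1.599 FPKM in Hs578T CD44 WT and 15.3 ± 1.12 FPKM in Hs578T CD44 KO, of which MEF2C held 1.00 ± 0.362% and 4.08 ± 0.340%. In MDA-MB-231 it was 15.6 ± 1.82 FPKM in CD44 WT and 19.3 ± 2.60 FPKM in CD44 KO, with MEF2C at 6.70 ± 1.95% and 7.20 ± 0.797%. MEF2A and MEF2D together made up most of the MEF2 RNA in all groups. The plot of fitted differences sets these values side by side for both lines.

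**Figure D3:**
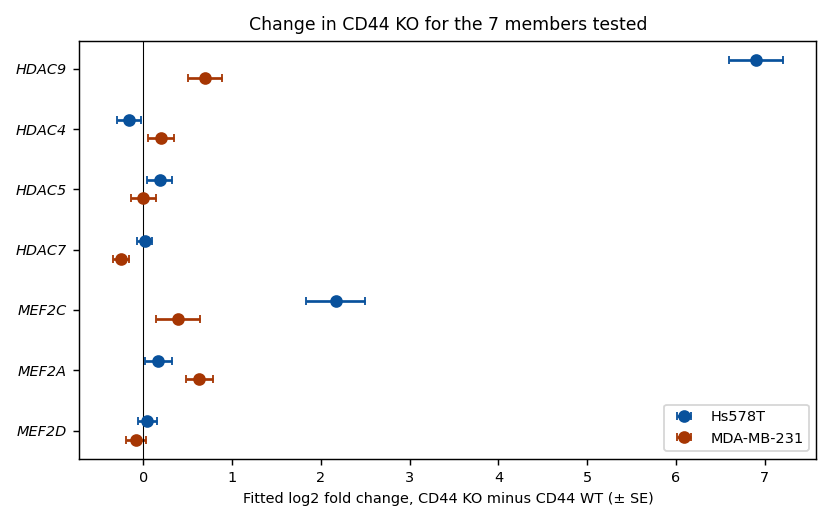
Fitted log2 difference of CD44 KO over CD44 WT (x axis, log2 scale) with its standard error for the 7 members that passed the filter (y axis), in Hs578T and MDA-MB-231. HDAC9 (6.90) and MEF2C (2.17) in Hs578T stand apart from the other values, which lie between -0.25 and 0.70.

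The promoter windows of the members were read because HDAC9 and MEF2C were both higher in Hs578T CD44 KO, and because MEF2 factors bind an A/T-rich element. The sequences come from RefSeq windows of GRCh38.p14, which hold 250 bases before a start site and 50 from it, and are shown with 250 and 10 of these. Of the 9 members, 8 had a window, 24 in all. HDAC5 had none. The MEF2 consensus element, searched on both strands, was found in 3 of the 24 windows of 300 bases. These were 1 of the 5 windows of HDAC9, 1 of the 3 of MEF2A and 1 of the 7 of MEF2C. It was found in 1050 of all 35116 windows (2.99%), a share per window, and genes with more windows had more chances of a match. A match is a description of the letters and not of binding. The 3 windows that hold it are shown with the match in capitals, together with the window of the second HDAC9 start site, which holds none.
HDAC9 start site 18086825, chr7:18086575-18086834, plus strand: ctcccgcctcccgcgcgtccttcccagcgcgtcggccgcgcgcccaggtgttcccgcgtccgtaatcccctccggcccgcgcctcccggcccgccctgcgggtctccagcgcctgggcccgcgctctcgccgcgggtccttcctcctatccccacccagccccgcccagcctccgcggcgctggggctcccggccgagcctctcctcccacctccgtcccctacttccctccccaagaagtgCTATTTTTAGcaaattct
HDAC9 start site 18495710, chr7:18495460-18495719, plus strand: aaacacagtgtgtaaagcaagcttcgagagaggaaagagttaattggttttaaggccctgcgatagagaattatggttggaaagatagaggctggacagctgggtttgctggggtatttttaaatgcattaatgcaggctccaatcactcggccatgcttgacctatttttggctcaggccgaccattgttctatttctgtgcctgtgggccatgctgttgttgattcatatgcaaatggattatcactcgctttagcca
MEF2C start site 88824344, chr5:88824335-88824594, minus strand: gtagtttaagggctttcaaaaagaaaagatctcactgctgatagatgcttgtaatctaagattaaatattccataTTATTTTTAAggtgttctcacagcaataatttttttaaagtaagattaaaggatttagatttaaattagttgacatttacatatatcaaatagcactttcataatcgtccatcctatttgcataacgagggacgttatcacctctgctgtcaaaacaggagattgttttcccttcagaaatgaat
MEF2A start site 99565984, chr15:99565734-99565993, plus strand: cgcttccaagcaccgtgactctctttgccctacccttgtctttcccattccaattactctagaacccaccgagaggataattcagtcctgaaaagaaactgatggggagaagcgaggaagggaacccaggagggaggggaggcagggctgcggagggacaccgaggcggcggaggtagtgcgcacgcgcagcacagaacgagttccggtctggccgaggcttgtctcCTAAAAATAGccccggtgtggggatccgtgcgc

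In the first HDAC9 window the element CTATTTTTAG lies across the start site itself, in a window of 73.5% GC. The MEF2A window holds CTAAAAATAG, which is the same element read on the other strand, while the MEF2C window holds TTATTTTTAA in a window of 30.4% GC. CTATTTTTAG, on either strand, was present in 50 of all 35116 windows (0.142%). It was taken from the HDAC9 window before it was counted, so this share is a description and not a test. The first and the second HDAC9 start site lie 408.9 kb apart, and counts per gene do not show which of them gave the HDAC9 RNA of these cells.

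FERD3L and the other genes past the 3' end of HDAC9 were read next. FERD3L (ENSG00000146618.3, chr7:19144782-19145421, minus strand), which encodes a basic helix-loop-helix factor of the embryonic nervous system, had 1, 4 and 4 counts in the Hs578T CD44 KO libraries and 0 counts in the other 9 libraries. It did not pass the filter. With a floor of 3 counts set for the whole Hs578T CD44 WT group, its Hs578T CD44 KO level was 2.85-fold that floor. The floor makes no allowance for counting error in CD44 KO. TWIST1, a basic helix-loop-helix factor of mesenchyme and of epithelial-mesenchymal transition, lies on the minus strand between HDAC9 and FERD3L. The 3' end of its annotated span is 18.6 kb past HDAC9, and its 5' end is on the side of FERD3L. Parts of the HDAC9 gene are known to hold enhancers of TWIST1 in the embryo. TWIST1 had 2.08, 1.40 and 0.931 CPM in Hs578T CD44 WT and 24.6, 23.4 and 27.98 CPM in Hs578T CD44 KO. Every CD44 KO library lay above every CD44 WT library, with a log2 difference of 4.07 (standard error 0.243, adjusted p = 1.1e-06, edgeR), and TWIST1 had 0 counts in all 6 MDA-MB-231 libraries.

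Between HDAC9 and POLR1F, the next gene on that side that passed the filter, the table lists 6 genes, of which TWIST1 alone passed. Of the other 5, ENSG00000232821 at 110 kb had 0, 2 and 0 counts in Hs578T CD44 WT and 1, 0 and 1 in Hs578T CD44 KO. The remaining 4 had 0 counts in Hs578T CD44 WT and counts in every Hs578T CD44 KO library. This group of 4 was chosen after its values were seen. Besides FERD3L, they are ENSG00000236536 with 4, 3 and 2 counts, ENSG00000229533, which lies antisense to FERD3L, with 5, 7 and 6 counts, and ENSG00000223838 with 15, 13 and 6 counts in the Hs578T CD44 KO libraries. Their Hs578T CD44 KO levels were 2.85-fold, 5.70-fold and 10.8-fold the same floor, again without an allowance for counting error in CD44 KO. Farther out, POLR1F, a subunit of RNA polymerase I at 693 kb, had 30.4 ± 1.06 CPM in Hs578T CD44 WT and 28.9 ± 0.848 CPM in Hs578T CD44 KO (log2 difference -0.07, adjusted p = 0.768). On the other side SNX13, a sorting nexin 146 kb before HDAC9, had 55.8 ± 2.69 and 58.6 ± 3.89 CPM in these groups (log2 difference 0.07, adjusted p = 0.833). The plot by distance shows long steps in Hs578T for HDAC9 and the genes drawn up to 351 kb past it, and no such steps at SNX13 or POLR1F. ENSG00000232821 was not drawn.

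**Figure D4:**
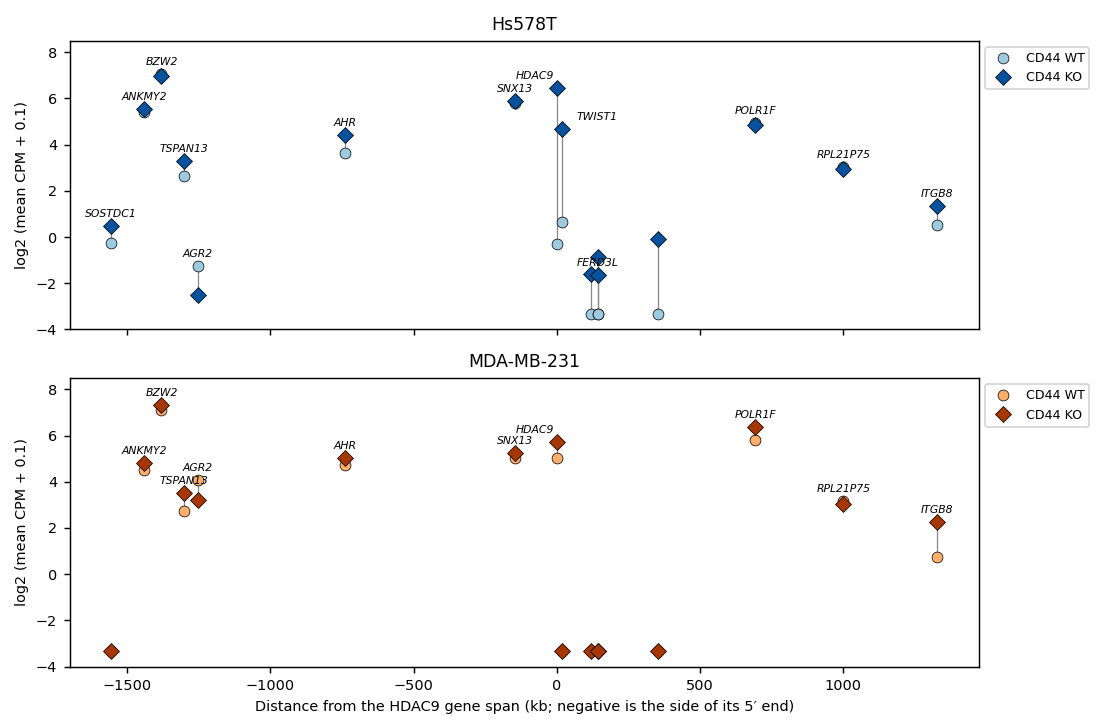
Mean level (y axis, log2 of CPM + 0.1) in CD44 WT and CD44 KO of Hs578T (top) and MDA-MB-231 (bottom) for HDAC9, the 11 genes within 1600 kb that passed the filter and the 4 genes without counts in Hs578T CD44 WT, by distance from HDAC9 (x axis, kb); lines join the groups of a gene, and genes at 0 in both groups of a line carry no name. Among the genes drawn, the longest lines in Hs578T are those of HDAC9 and of the genes up to 351 kb past it. The 4 genes were drawn because they had counts in Hs578T CD44 KO alone, and ENSG00000232821, at 110 kb, was not drawn.

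Within 2 Mb of HDAC9 the table lists 64 other genes, of which 12 passed the filter and 28 had 0 counts in all 12 libraries. In Hs578T, 2 of the 12 were called, where 7.51% of all genes were. These were TWIST1 and AHR, the aryl hydrocarbon receptor 741 kb before HDAC9. AHR rose from 12.4 ± 1.29 to 21.4 ± 3.62 CPM (log2 difference 0.79, adjusted p = 0.00641, edgeR), a call that was lost in 5 alternatives, each of which left out 1 Hs578T library other than CD44 KO replicate 1 (adjusted p 0.0163 to 0.0429). In MDA-MB-231, POLR1F and ITGB8, an integrin subunit that binds latent TGF-beta, were called, where 4.62% of all genes were. POLR1F rose from 56.2 ± 9.44 to 83.2 ± 10.6 CPM (log2 difference 0.57, adjusted p = 0.00664) and ITGB8 from 1.56 ± 0.544 to 4.72 ± 0.423 CPM (log2 difference 1.58, adjusted p = 0.00384). POLR1F lost its call in 9 alternatives (adjusted p 0.0106 to 0.0487) and ITGB8 in 6 (0.012 to 0.0169), among them the fits that left out MDA-MB-231 CD44 KO replicate 1 or 2, or replicate 1 or 3 of the CD44 WT group. DESeq2 called 3 genes there, with TSPAN13 beside both. TSPAN13, a tetraspanin, was higher in CD44 KO of both lines without a call, with log2 differences of 0.65 (adjusted p = 0.0323) in Hs578T and 0.81 (adjusted p = 0.0133) in MDA-MB-231. The other 7 genes tested, among them SOSTDC1, ANKMY2, BZW2, AGR2, SNX13 and RPL21P75, were called in neither line.

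The enzymes and partners around the class IIa deacetylases were taken as 6 lists of 97 genes, of which 83 were tested. In Hs578T, 10 of them were called (12%, against 7.51% of all genes), 5 higher and 5 lower in CD44 KO. In MDA-MB-231, 3 were called (3.61%, against 4.62% of all genes), 2 higher and 1 lower. Over the lists together the median log2 difference stood at -0.03 for Hs578T and -0.01 for MDA-MB-231, beside -0.01 and -0.02 over all genes with counts in the line. Leaving out 1 library at a time gave 3 to 14 calls in Hs578T, with 3 calls without CD44 KO replicate 3 or CD44 WT replicate 1 and 4 calls without CD44 KO replicate 2. The share of all genes called fell too, to 4.45%, 3.95% and 3.84% in these fits. In MDA-MB-231, leaving out 1 library gave 1 to 3 calls, with 1 call without CD44 KO replicate 1 or 2, where 2.81% and 2.25% of all genes were called.

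The kinases that phosphorylate class IIa deacetylases held 4 of the 10 calls in Hs578T, of 16 tested (25%, against 7.51% of all genes). PRKD1, protein kinase D1, rose from 6.20 ± 1.43 to 17.9 ± 0.0762 CPM with CD44 KO (log2 difference 1.54, adjusted p = 0.000275, edgeR) and had 0 counts in MDA-MB-231. CAMK4, a calcium and calmodulin-dependent kinase of neurons and T cells, rose from 17.5 ± 4.41 to 32.5 ± 1.08 CPM (log2 difference 0.90, adjusted p = 0.000665), and both calls held in all alternatives. CAMK2D, the delta subunit of calcium and calmodulin-dependent kinase II, rose from 8.91 ± 1.94 to 17.8 ± 4.88 CPM (log2 difference 1.01, adjusted p = 0.0043). PRKAA2, a catalytic subunit of AMP-activated kinase, fell from 7.56, 5.02 and 2.03 CPM to 1.04, 1.36 and 0.768 CPM (log2 difference -2.19, adjusted p = 0.00479), with a wide spread in CD44 WT. The CAMK2D call was lost without Hs578T CD44 KO replicate 2 or 3 or CD44 WT replicate 1 or 3 (adjusted p 0.0125 to 0.0327), and the PRKAA2 call without any 1 Hs578T library other than CD44 WT replicate 3 (0.0166 to 0.0396). In MDA-MB-231, MARK3, a microtubule affinity-regulating kinase, rose from 60.6 ± 2.90 to 88.4 ± 3.93 CPM (log2 difference 0.55, adjusted p = 0.000483) and was the 1 kinase called (6.25%, against 4.62% of all genes). The kinases had a median log2 difference of -0.01 in Hs578T cells, against 0.19 in MDA-MB-231 cells.

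Of the 8 genes for 14-3-3 proteins and nuclear export, which hold phosphorylated class IIa deacetylases in the cytoplasm, 2 fell in Hs578T (25%, against 7.51% of all genes). SFN, 14-3-3 sigma, fell from 49.7 ± 7.73 to 32.6 ± 1.58 CPM (log2 difference -0.61, adjusted p = 0.00476, edgeR) and YWHAQ, 14-3-3 theta, from 587 ± 37.8 to 427 ± 5.29 CPM (log2 difference -0.46, adjusted p = 0.00101). In MDA-MB-231, 0 of the 8 were called by edgeR and 2 by DESeq2, and 3 had p under 0.05 before adjustment, beside 3713 of all 15836 genes. There SFN had a log2 difference of -0.36 (adjusted p = 0.0769) and YWHAQ of -0.34 (adjusted p = 0.0118), both with every CD44 KO library below every CD44 WT library. The SFN call in Hs578T was lost without any 1 library of that line other than CD44 WT replicate 3 (adjusted p 0.014 to 0.0345) and the YWHAQ call without CD44 KO replicate 3 (0.0106).

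Of the 11 corepressor partners, which include NCOR1, 0 were called by edgeR in either line. In Hs578T, 2 of them had p under 0.05 before adjustment and 1 was called by DESeq2, and both counts were 0 in the other line. Of the 14 other histone deacetylases, 0 were called in Hs578T by edgeR or by DESeq2 and 3 had p under 0.05 before adjustment. Over all 15836 genes, 4339 had such a p in Hs578T and 3713 in MDA-MB-231. SIRT3, a mitochondrial deacetylase encoded on chromosome 11 as CD44 is, fell in MDA-MB-231 from 18.2, 15.8 and 14.6 CPM to 7.37, 10.2 and 10.3 CPM (log2 difference -0.80, adjusted p = 0.00407, edgeR). In Hs578T the same gene stood at 56.2 ± 9.12 CPM in CD44 WT and 72.5 ± 4.55 CPM in CD44 KO (log2 difference 0.37, adjusted p = 0.0757). The SIRT3 call was lost when the line was fitted alone (0.0248) and without MDA-MB-231 CD44 KO replicate 1 or 2 or CD44 WT replicate 1 or 3 (0.0116 to 0.0201).

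Of the 19 activators and cofactors of MEF2, 1 was called in each line (5.26%, against 7.51% of all genes in Hs578T and 4.62% in the other line). NFATC1, a calcineurin-activated factor that acts with MEF2, fell in Hs578T from 7.56, 5.59 and 1.86 CPM to 1.20, 0.740 and 1.02 CPM (log2 difference -2.38, adjusted p = 0.00141, edgeR), with CD44 WT replicate 3 close to the CD44 KO libraries. Without Hs578T CD44 KO replicate 2 or CD44 WT replicate 1 it was not called (adjusted p 0.0145 and 0.0107). PPP3CB, a catalytic subunit of calcineurin, rose in MDA-MB-231 from 60.5 ± 9.02 to 85.0 ± 4.41 CPM (log2 difference 0.49, adjusted p = 0.0093). That call was lost in 14 of 24 alternatives (0.0108 to 0.0505), among them the fits that left out any 1 CD44 KO library of this line or its CD44 WT replicate 1.

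Of 26 genes known as MEF2 targets, 15 were tested, and the muscle genes among the rest were mostly under the filter. In Hs578T, 3 were called (20%, against 7.51% of all genes). BDNF, a neurotrophin, rose from 0.404 ± 0.192 to 1.28 ± 0.225 CPM (log2 difference 1.67, adjusted p = 0.0052, edgeR), on 15 and 51 counts in all. SLC2A4, the insulin-responsive glucose transporter, rose from 4.52 ± 1.40 to 9.12 ± 2.00 CPM (log2 difference 1.03, adjusted p = 0.00696). PPARGC1A, a coactivator of mitochondrial genes, fell from 7.47 ± 2.91 to 2.105 ± 0.431 CPM (log2 difference -1.81, adjusted p = 0.00197), so the called targets did not move in 1 direction. The 14 targets with counts in Hs578T had a median log2 difference of -0.05. Of the 15 tested, 10 had an unadjusted p under 0.05 in Hs578T by edgeR, beside 4339 of all 15836 genes. DESeq2 called 5 of them in Hs578T, beside 1553 of all genes. In MDA-MB-231, 0 of the 15 were called by edgeR or by DESeq2, and the median was -0.01. Of the 15, 6 had an unadjusted p under 0.05 there, beside 3713 of all 15836 genes. The BDNF call was lost in 8 alternatives, of which 5 left out a Hs578T library other than CD44 WT replicate 3 (adjusted p 0.0117 to 0.0402), and the PPARGC1A call without CD44 KO replicate 1 or 3 or CD44 WT replicate 1 (0.0131 to 0.0151). The SLC2A4 call was lost in 6 alternatives (0.0111 to 0.0447), among them the fits without Hs578T CD44 KO replicate 2 or 3 or CD44 WT replicate 1 or 3 or, in the other line, CD44 KO replicate 2.

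Between the CD44 WT cells of both lines, HDAC4, HDAC5 and MEF2C differed. Of the 6 members tested without HDAC9, 3 were called between Hs578T CD44 WT and MDA-MB-231 CD44 WT, where 61.5% of all genes were called, 32.2% as higher in Hs578T and 29.4% as lower. HDAC4 was higher in Hs578T (log2 difference 0.92, standard error 0.143, adjusted p = 3.1e-05, edgeR), as was HDAC5 (0.54, standard error 0.140, adjusted p = 0.00296). MEF2C was lower in Hs578T (log2 difference -2.95, standard error 0.320, adjusted p = 7.25e-07). The HDAC5 call was lost without Hs578T CD44 WT replicate 2 (adjusted p = 0.0159) or MDA-MB-231 CD44 WT replicate 1 (0.0101). HDAC7, MEF2A and MEF2D had log2 differences of 0.12, -0.15 and -0.02 (adjusted p 0.241, 0.404 and 0.879). MEF2C, as HDAC9, had its lowest level in Hs578T CD44 WT, but its highest was in MDA-MB-231 CD44 KO.

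The genes whose levels followed HDAC9 most closely over the 12 libraries were GALNT3 (Pearson r = 0.983 on log2 CPM), RNF125 (0.976), HAS2 (0.969), PPP1R9A (0.963) and ETV1 (0.960). They were taken for their likeness to HDAC9, so their values are a description without a test, and the points share 4 groups and 2 lines. GALNT3 starts O-glycosylation in the Golgi, RNF125 is a ubiquitin ligase, HAS2 is a hyaluronan synthase, PPP1R9A is the actin-binding neurabin 1, and ETV1 is an ETS transcription factor. In Hs578T, RNF125 stood at 0.501 ± 0.0884 CPM in CD44 WT and 5.49 ± 0.919 CPM in CD44 KO, and PPP1R9A at 0.941 ± 0.0649 and 14.96 ± 1.04 CPM. HAS2, whose product CD44 binds, stood at 2.74 ± 0.125 CPM in Hs578T CD44 WT and 20.1 ± 3.30 CPM in CD44 KO, and ETV1 at 5.12 ± 0.843 and 47.2 ± 9.78 CPM. GALNT3 had the highest CD44 WT level of the 5, at 13.8 ± 0.235 CPM, and 44.8 ± 4.98 CPM in CD44 KO. In all 5 genes Hs578T CD44 WT was the lowest group, as it was for HDAC9. In MDA-MB-231 the log2 differences of the 5 genes lay between 0.14 (PPP1R9A) and 0.50 (HAS2), below the 0.70 of HDAC9. For GALNT3, HAS2 and ETV1, MDA-MB-231 CD44 WT replicate 1 was the lowest library of that line, as for HDAC9, with 25.8, 6.68 and 29.2 CPM.

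**Figure D5:**
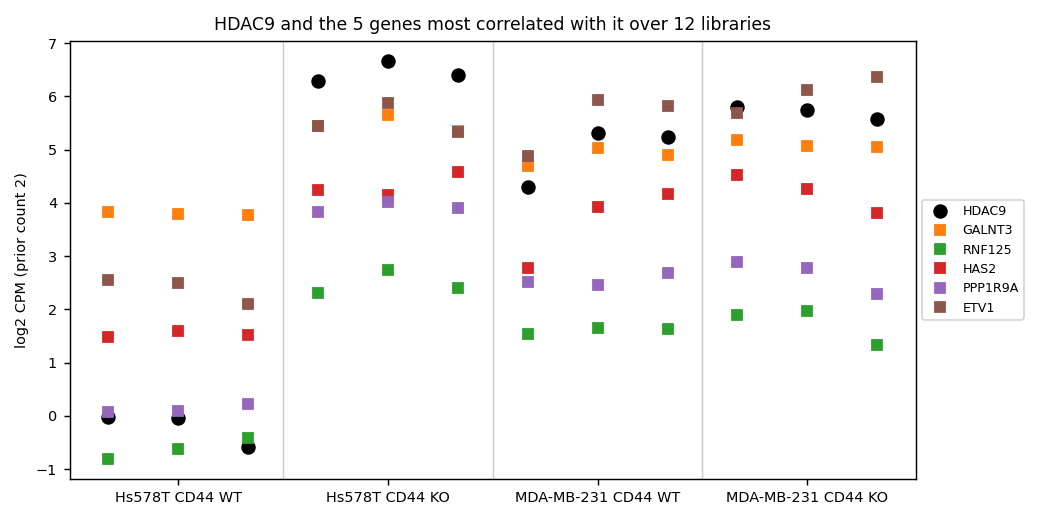
Level in each library (y axis, log2 CPM with a prior count of 2) of HDAC9 (circles) and of the 5 genes with the highest Pearson correlation with it (squares), with the 12 libraries by group on the x axis. All 6 genes had their lowest values in the 3 Hs578T CD44 WT libraries.

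The libraries held 10257586 to 19725543 counts each. CD44 itself fell from 507 ± 17.6 to 27.3 ± 2.06 CPM in Hs578T (log2 difference -4.22), as the labels say, and MDA-MB-231 cells went from 362 ± 1.70 to 34.2 ± 5.40 CPM (log2 difference -3.40). Mesenchymal markers summed to at least 5085 CPM in every library, but 2 of the 5, SPARC and CDH2, were under 1 CPM in both MDA-MB-231 groups. Of the 9 luminal markers, the progesterone receptor gene PGR had 0 counts in all groups. KRT8 and KRT18 were well expressed, with group means of 307 to 571 CPM and 374 to 631 CPM. Of the 9, 5 were under 1 CPM in both Hs578T groups and 4 in both MDA-MB-231 groups. The luminal markers summed to 774.5 to 1188 CPM over the libraries, mainly through KRT8 and KRT18. Markers of other cell types moved with some groups in which HDAC9 and MEF2C were higher. The 5 leukocyte markers summed to 3.64 to 5.38 CPM in Hs578T CD44 KO and 1.11 to 1.48 CPM in Hs578T CD44 WT, mainly through PTPRC (3.78 and 0.369 CPM), while 4 of the 5 stayed under 1 CPM in Hs578T CD44 KO. The 4 endothelial markers summed to 16.5 to 16.96 CPM in Hs578T CD44 KO and 11.9 to 14.3 CPM in Hs578T CD44 WT, with 1 and 2 of the 4 under 1 CPM, and to 14.1 to 15.6 and 6.17 to 9.71 CPM in the MDA-MB-231 groups, where KDR had 11.9 and 5.97 CPM. The 7 striated muscle markers summed to 11.8 to 13.65 CPM in Hs578T CD44 KO and 10.1 to 20.8 CPM in Hs578T CD44 WT, mainly through DES (10.3 and 14.6 CPM). Among them TTN stood at 1.16 and 0.0795 CPM and MYH3 at 1.104 and 0.415 CPM in these groups. MYOD1, as DES, was lower in CD44 KO (0.0473 and 0.184 CPM), and MYOG, the muscle regulator myogenin, had 0 counts in all groups. In MDA-MB-231 the muscle markers summed to 8.47 to 10.96 CPM in CD44 KO and 12.1 to 18.3 CPM in CD44 WT. MYH3 was lower in CD44 KO there (9.18 and 13.7 CPM). The 5 neuron markers overlapped in Hs578T, with sums of 16.8 to 20.3 CPM in CD44 KO and 14.8 to 18.4 CPM in CD44 WT. In MDA-MB-231 they were lower in CD44 KO, at 7.26 to 7.71 CPM against 7.93 to 9.81 CPM in CD44 WT. The part of these markers in the HDAC9 and MEF2C values was not tested.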

How the data were processed

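Sorted CD44 WT and KO cells of both lines were sequenced as stranded paired-end RNA-seq libraries. Per the labels and the methods of the study, the authors aligned to GRCh38 by HISAT2 (version 2.1.0) and made whole-number counts per gene with featureCounts (version 1.6.2) and a GENCODE annotation. Fragments needed a mapping quality of 10 and the expected strand, and those that fell in several genes were left out. The deposited counts of 58381 genes are not normalized. The name of 1 MDA-MB-231 CD44 WT column stands in the labels of several replicates, so this library has a group but no number. The 15836 genes above 1 CPM in 2 or more libraries and with 300 nt or more of exons were tested with edgeR 4.0.16 in R 4.3.3 (TMM factors, glmQLFit in its legacy form, glmQLFTest, 4 group means over all 12 libraries). Calls were made at an adjusted p (Benjamini-Hochberg) of 0.01 or less. FPKM divides CPM by exonic length. The fits were tested on simulated data. DESeq2 1.42.0, other scalings, filters, thresholds, blocks and each library left out were alternatives. Total counts of 10257586 to 19725543 limit the precision for weak genes, and the bounds cover counting error only. Named were the 9 members, CD44, up to 4 called genes per pathway list and line, tested genes within 2 Mb of HDAC9 (drawn up to 1600 kb) and the 5 most correlated with it. Some genes that this rule or the lists hold are not reported here. The members and lists were chosen with earlier results of these data known.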

Additional observations from a re-analysis of the deposited data

Results flagged for a closer look

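The change with CD44 KO differed between the lines for 4 of the 83 pathway genes tested (4.82%, near the 4.12% of all genes called), by the test of the difference in edgeR's quasi-likelihood fit. SIRT3 changed by 1.17 log2 units more in Hs578T than in MDA-MB-231 (adjusted p = 0.00198), with 0.37 in Hs578T and -0.80 in MDA-MB-231. NFATC1 differed by -2.82 (adjusted p = 0.00287), with -2.38 in Hs578T and 0.44 in MDA-MB-231. PPARGC1A differed by -2.52 (adjusted p = 0.0033), with -1.81 and 0.71. BDNF, encoded on chromosome 11 as SIRT3 and CD44 are, differed by 2.06 (adjusted p = 0.00385), with 1.67 and -0.39. In all 4 genes the fitted changes had opposite signs in the lines, but none of the genes was called in both. The changes not called by edgeR were those of SIRT3 in Hs578T (adjusted p = 0.0757) and of the others in MDA-MB-231. These had adjusted p of 0.388 (NFATC1), 0.2105 (PPARGC1A) and 0.172 (BDNF). The cause was not tested.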

How the results depend on the processing

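Of 1545 values of single genes under the alternatives, 1435 kept their direction and side of the threshold, 76 lost a call, 18 gained one and 16 turned in sign. In MDA-MB-231 the members called numbered 1 with DESeq2, 2 without a filter on low counts, 2 at a threshold of 0.05 and 0 to 1 with 1 library left out. For the difference between the lines they numbered 1 in the first 3 of these settings and 0 to 1 with 1 library left out. Pathway genes called in Hs578T numbered 16 at 0.05 and 3 to 14 with 1 library left out, and in MDA-MB-231 7 with DESeq2, 0 with each line fitted alone, 8 at 0.05 and 1 to 3 with 1 library left out. Genes called near HDAC9 numbered 5 without the filter and 1 to 2 with 1 library left out in Hs578T, and in MDA-MB-231 4 without the filter, 1 with each line alone and 0 to 2 with 1 library left out.

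Replicate numbers did not pair the libraries: deviations of the same number correlated at -0.0566, 0.0222 and -0.0957 in Hs578T and at 0.00793 and 0.164 in MDA-MB-231. The fit with the replicate number as a block (without the unnumbered library) gave 1 gene called near HDAC9 in MDA-MB-231 and a log2 difference of -0.03334 for HDAC5 there. Libraries in the same block of consecutive label numbers correlated at 0.134, 0.0315 and 0.101 in Hs578T and at 0.00793, 0.0992 and 0.164 in MDA-MB-231, all positive. Pairs from different blocks correlated at -0.119 to 0.0264 in Hs578T and at -0.171 to 0.093 in MDA-MB-231. The main fit left this block out. With that block, 1 member was called in MDA-MB-231 (MEF2A) and 1 for the difference between the lines (MEF2C), and HDAC5 in MDA-MB-231 was at -0.008134.

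Other values near 0 turned in sign. With 1 library left out, HDAC5 in MDA-MB-231 ranged from -0.1281 to 0.1788, HDAC7 in Hs578T from -0.01686 to 0.06017, MEF2D in Hs578T from -0.04176 to 0.1001 and MEF2D between the CD44 WT lines from -0.0715 to 0.06973, which was 0.09946 with library size only. SNX13 in MDA-MB-231 ranged from -0.02533 to 0.415, and RPL21P75 between -0.2248 and 0.02398 in Hs578T and between -0.2844 and 0.1363 in the other line. The cause was not tested. Counts over all genes moved by more than 1.5 times in MDA-MB-231, where edgeR called 731 genes: DESeq2 called 1138, each line alone 315, the replicate block 436, the threshold of 0.05 gave 1518, and the fit without a filter 1370. In Hs578T, 1189 genes became 2253 at 0.05 and 1984 without a filter. With 1 library left out, 605 to 1685 genes were called in Hs578T and 355 to 763 in MDA-MB-231. Low depth limits HDAC9 in Hs578T CD44 WT (28 counts), MEF2B and FERD3L.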
